A study of Homo sapiens with 6 samples.

Results

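The 5 C/EBP genes CEBPA, CEBPB, CEBPD, CEBPE and CEBPG and their partner gene ATF3 were chosen by gene symbol, 6 of the 19727 genes with a value, as dimer partners in stress transcription. Their expression was compared in DU145, an established human prostate cancer cell line, between cells carrying lentivirus-circCSPP1 (titled OE, genotype circCSPP1 overexpression) and cells carrying the control lentivirus-NC (titled NC, genotype normal), with 3 libraries of polyadenylated RNA in each group. circCSPP1 is a circular RNA made from the CSPP1 gene, and the study asked what its overexpression does to prostate cancer cells. Every library came from the same cell line, and each group carried its own virus, so the virus and its insert cannot be told apart from the group. Values are FPKM, which divides a gene's fragments by the length of its transcript and by the fragments of the library and so allows levels of different genes to be compared.

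C/EBP proteins are bZIP transcription factors, which bind DNA as dimers held together by a leucine zipper, and they take part in acute phase, cytokine, myeloid and adipocyte transcription. CEBPA, CEBPB, CEBPD and CEBPE carry activation domains. CEBPG lacks one and works mainly as a partner, and with ATF4 it binds composite elements in genes of the amino acid and stress response. ATF3 is a small bZIP protein of the ATF/CREB branch whose gene is switched on by many kinds of stress and which can repress or activate transcription.

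CEBPG and ATF3 rose in the lentivirus-circCSPP1 libraries, CEBPG to 2.002 times and ATF3 to 1.75 times the control mean. CEBPB, the most abundant member, and CEBPD, the second in the control cells, did not pass the test. CEBPA was near 1 FPKM and CEBPE was close to 0. At an adjusted p of 0.05, 2 of the 5 tested members were called, both higher, where 11.4% of the 12322 tested genes were called in either direction 4.69% were called as higher and 6.66% as lower.

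The sequences around the RefSeq starts of the genes are given first, since the members differ there in the motifs they hold. RefSeq promoters on GRCh38.p14, each running from 250 bases before to 50 bases after a start, were searched for 5 members in 8 entries. CEBPD was not searched, and the ATF3 entries do not cover the start of its main GENCODE transcript, whose promoter was not analysed here. The search covered both strands and looked for the C/EBP and ATF composite TGATGCAA, the CRE TGACGTCA, its shorter form TGACG, the C/EBP palindrome TTGCGCAA, the CCAAT box and the TATA box TATAAA. Capitals below mark the motif, which for the CCAAT box of CEBPG reads ATTGG because it lies on the opposite strand.

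CEBPG, second start, composite, chr19:33374060-33374089, + strand: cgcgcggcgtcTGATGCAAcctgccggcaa
CEBPG, first start, CCAAT box, chr19:33373612-33373641, + strand: agcctgcccacgATTGGtcgactgggctgc
CEBPG, first start, CCAAT box, chr19:33373673-33373702, + strand: gccggcgctcccATTGGccgggatggcggc
CEBPB, second start, short CRE, chr20:50190761-50190790, + strand: gaggggccggcgTGACGcagcggttgctac
CEBPB, second start, TATA box, chr20:50190789-50190818, + strand: acgggccgccctTATAAAtaaccgggctca
CEBPA, TATA box, chr19:33302547-33302576, - strand: cggcctgccgggTATAAAagctgggccggc

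CEBPG was the only member with the composite TGATGCAA in these windows, at position -42 from its second start, and 0.866% of all 35116 promoter entries hold those letters. TGACG, which stood at -57 in CEBPB, was found in 24.6% of the entries. TATAAA stood at -29 in CEBPB, at -30 in CEBPA and at -230 in an ATF3 window, and 11.5% of the entries hold it. The CCAAT box, found in 34.6% of the entries, occurred at -85 and -24 in CEBPG and also in windows of CEBPB and ATF3. Neither the palindrome TTGCGCAA nor the full CRE TGACGTCA, which 0.151% and 1.85% of the entries hold, was found in the windows searched. A match of letters is a description and not a measured binding site.

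CEBPG (ENSG00000153879, chr19:33373330-33382686, + strand in GENCODE release 29 on GRCh38) has 2 exons, and its longest protein-coding transcript is 4109 nt long. Its FPKM was 24.11, 24.61 and 22.17 in control replicates 1, 2 and 3, and 39.27, 52.70 and 49.95 in the lentivirus-circCSPP1 libraries of the same numbers. Every lentivirus-circCSPP1 library lay above every control library, and replicate 1 was the lowest of its group. The mean went from 23.6 ± 1.29 to 47.3 ± 7.09 FPKM (SD, n = 3 each). The log2 fold change of FPKM + 1 was 0.96 ± 0.13 (SE), with an adjusted p = 0.00588 in limma's moderated test. It was the 86th largest rise among the tested genes. The exact permutation test on the 6 values gave p = 0.1, the smallest that 3 libraries against 3 allow.

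ATF3 (ENSG00000162772, chr1:212565334-212620777, + strand) has 11 transcripts in GENCODE release 29, and the single deposited value does not separate isoforms. Its level was 9.70, 9.37 and 5.59 FPKM in the control replicates and 14.25, 13.35 and 15.50 FPKM in the lentivirus-circCSPP1 replicates. The groups did not overlap, and control replicate 3 was the lowest library. The mean went from 8.22 ± 2.28 to 14.4 ± 1.08 FPKM (SD, n = 3 each), a log2 fold change of 0.77 ± 0.19 (SE) with an adjusted p = 0.0453 in limma. Without control replicate 3 the log2 fold change was 0.54 (adjusted p = 0.0823 in limma), and the call was kept in 1 of the 6 fits that leave out a library. The rise of ATF3 is therefore close to the threshold, and that of CEBPG was past it in each of the 18 alternatives run.

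CEBPB (ENSG00000172216, chr20:50190734-50192689, + strand), an activator of cytokine and acute phase genes, has a single exon and a transcript of 1956 nt with a GC content of 66.2%. Its level was 45.03, 47.64 and 47.93 FPKM in the control replicates and 79.99, 43.23 and 59.71 FPKM in the lentivirus-circCSPP1 replicates. The control libraries were close together, while the lentivirus-circCSPP1 libraries ran from below all controls to well above them. The means were 46.9 ± 1.597 and 61.0 ± 18.4 FPKM (SD, n = 3 each), a log2 fold change of 0.33 ± 0.20 (SE, adjusted p = 0.325 in limma). Leaving out lentivirus-circCSPP1 replicate 1 brought it to 0.12, and leaving out replicate 2 to 0.55, with an adjusted p = 0.0519 in limma.

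CEBPD (ENSG00000221869, chr8:47736909-47739086, - strand), induced early by cytokines and stress in many cell types, also has a single exon. Its level was 28.7, 31.8 and 34.0 FPKM in the control replicates and 31.4, 19.5 and 29.4 FPKM in the lentivirus-circCSPP1 replicates. The groups overlapped, and lentivirus-circCSPP1 replicate 2 was the lowest library. The means were 31.5 ± 2.69 and 26.8 ± 6.36 FPKM (SD, n = 3 each), with a log2 fold change of -0.25 ± 0.18 (SE, adjusted p = 0.398 in limma).

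CEBPA (ENSG00000245848, chr19:33299934-33302564, - strand), the factor of granulocyte, fat and liver differentiation, was at 0.61, 1.12 and 0.66 FPKM in the control replicates and at 1.25, 2.70 and 1.21 FPKM in the lentivirus-circCSPP1 replicates. The groups did not overlap, and replicate 2 was the highest library in each group. The log2 fold change was 0.57 ± 0.22 (SE, adjusted p = 0.145 in limma), a scale that understates the change of so low a gene. Leaving out the highest library, lentivirus-circCSPP1 replicate 2, gave 0.32 (adjusted p = 0.217 in limma). The FPKM values stand for 47 to 245 fragments per library. CEBPG, ATF3 and CEBPA were thus the 3 of 5 tested members whose groups did not overlap, all 3 with lentivirus-circCSPP1 above, where 36.4% of all tested genes had groups without overlap, 16.0% above and 20.5% below the controls. CEBPA averaged 0.80 FPKM in the controls and 1.72 FPKM in the lentivirus-circCSPP1 libraries. It passed the minimum mean of 1 FPKM only through the higher group, so its place in this count is no support for a rise.

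CEBPE (ENSG00000092067, chr14:23117304-23119616, - strand), a factor of late granulocyte maturation, was under the minimum mean of 1 FPKM and was not tested. It was listed at 0.09, 0.02 and 0.04 FPKM in the control replicates, at 0.04 in lentivirus-circCSPP1 replicate 1 and at 0 in replicates 2 and 3, which is 0 to 4 fragments per library.

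**Figure D1:**
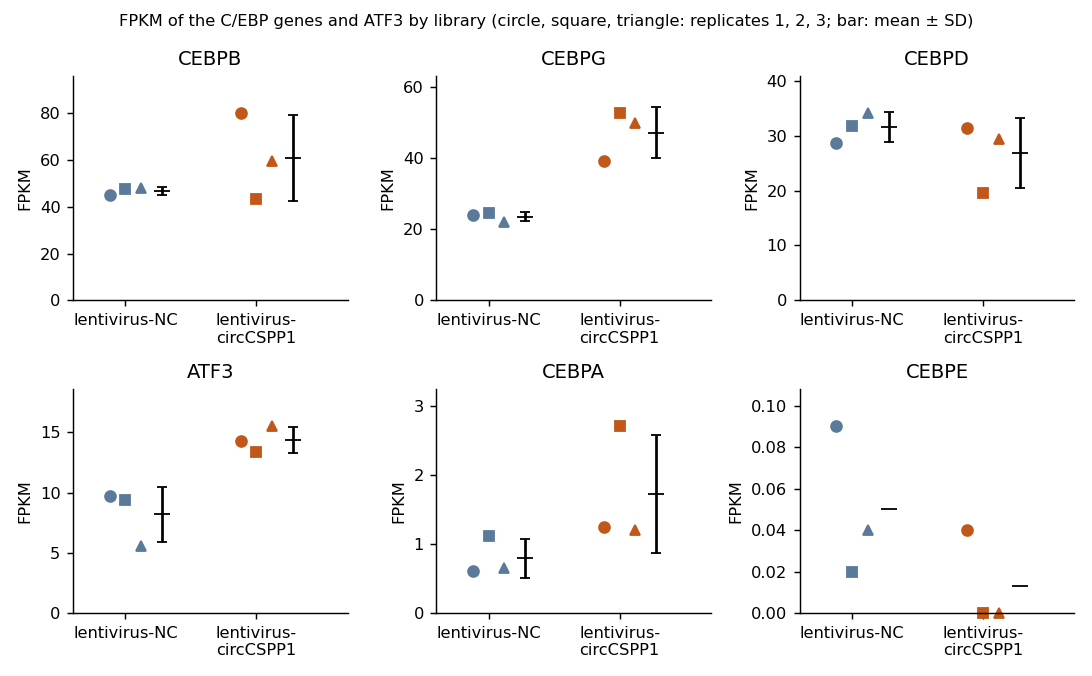
FPKM of each member in the 6 libraries, with 1 panel per gene, each panel on its own axis from 0, points for the replicates and bars for the mean ± SD (n = 3; the mean alone for CEBPE). CEBPG, ATF3 and CEBPA show groups that do not overlap, while CEBPB spreads from 43.2 to 80.0 FPKM within the lentivirus-circCSPP1 group.

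The plot of FPKM by library shows that the order of the members changed at the top. In the control cells the order was CEBPB, CEBPD, CEBPG, ATF3, CEBPA and CEBPE, and no neighbours in it overlapped. In the lentivirus-circCSPP1 cells CEBPG stood second, and its range overlapped that of CEBPB (exact permutation p = 0.4, two-sided, n = 3 each), while it lay above CEBPD in every library. The overlap with CEBPB came from replicate 2, with CEBPB at 43.23 and CEBPG at 52.70 FPKM. After the correction for GC content and length given below, the ranges did not overlap. CEBPB was then at 68.1, 49.1 and 62.8 FPKM and CEBPG at 45.2, 48.8 and 48.9 FPKM.

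The summed FPKM of the 5 C/EBP genes was 98.5, 105 and 105 in the control replicates and 152, 118 and 140 in the lentivirus-circCSPP1 replicates. The groups did not overlap (exact permutation p = 0.1). CEBPG made up 24.5%, 23.4% and 21.2% of the sum in the control replicates and 25.8%, 44.6% and 35.6% in the lentivirus-circCSPP1 replicates. CEBPD went from 30.6% ± 1.71 to 19.4% ± 2.48 of it (SD, n = 3 each), again with no overlap (exact permutation p = 0.1). The share of CEBPB was 45.6% ± 0.25 and 43.9% ± 8.11 (exact permutation p = 0.7). These are shares of RNA and not of protein or of dimers. They were taken on the values as deposited and were not computed on values corrected for GC content. The GC content of CEBPG (43.9%) is lower than that of CEBPB (66.2%) and CEBPD (70.0%), and the lentivirus-circCSPP1 libraries differed by base composition, as given below.

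**Figure D2:**
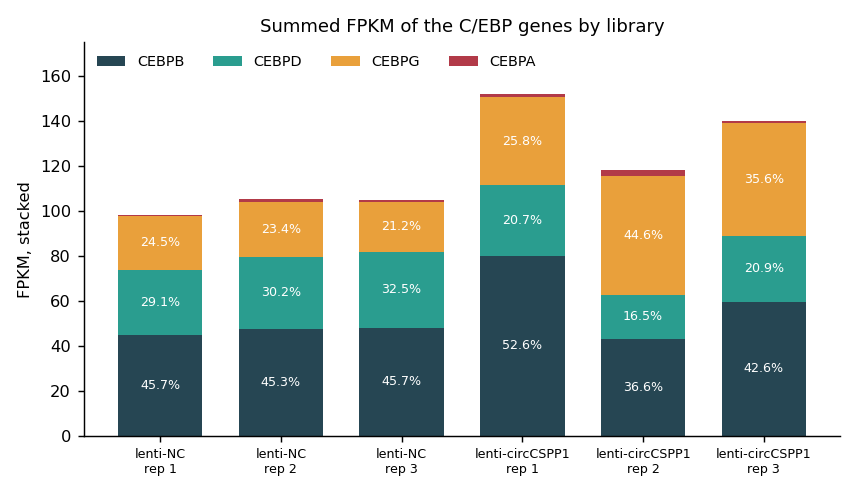
Stacked FPKM of CEBPB, CEBPD, CEBPG and CEBPA in each library, from 0, with the share of the summed C/EBP FPKM printed for the 3 larger members (CEBPE is too low to draw). CEBPD holds 29.1% to 32.5% in the control libraries and 16.5% to 20.9% in the lentivirus-circCSPP1 libraries.

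Ratios of 2 members within a library, taken on FPKM + 1, depend little on how the library was scaled. Among the 10 pairs of tested members, 4 had log2 ratios without overlap between groups, those of CEBPD with each other member. All 4 share CEBPD and so are not separate observations. Groups of single genes lacked overlap in 36.4% of the tested genes, but no such share was computed for ratios of other gene pairs. The count therefore has no background of its own and is a description only. The log2 ratio of CEBPD to CEBPG was 0.24, 0.36 and 0.60 in the control replicates and -0.31, -1.39 and -0.75 in the lentivirus-circCSPP1 replicates, a difference of -1.21. That of CEBPB to CEBPD was 0.63, 0.57 and 0.48 in the controls and 1.32, 1.11 and 0.9998 in the lentivirus-circCSPP1 replicates. The ratios of CEBPD to ATF3 and of CEBPA to CEBPD differed by -1.02 and 0.82 between the groups, and the latter was 0.37 without lentivirus-circCSPP1 replicate 2. Each of these had an exact permutation p = 0.1, or 0.25 after Benjamini-Hochberg adjustment over the 10 pairs, so none passed a threshold that the design cannot reach. The ratio of CEBPG to ATF3, the called members, differed by 0.19 (exact permutation p = 0.5).

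The lentivirus-circCSPP1 libraries differed from each other by base composition, and this moved with the values of several members. Over 12305 tested genes with a transcript, the difference between lentivirus-circCSPP1 replicates 1 and 2 in log2(FPKM + 1) had a Spearman correlation of 0.79 with transcript GC content, against 0.096 for control replicates 1 and 2 (a description across genes, which share the libraries). Among genes averaging 10 FPKM or more, the median difference was -0.42 in the 1504 genes of 40% to 45% GC and 0.44 in the 310 genes of 65% GC or more.

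CEBPB and CEBPD lay on the GC-rich side, at 66.2% and 70.0%, and their replicate 1 exceeded replicate 2 by 0.87 and 0.66. CEBPG, at 43.9%, was lower in replicate 1 by a difference of -0.42, the size of its class median. ATF3, at 50.8%, had a difference of 0.09. CEBPA, at 65.9%, went the other way, with a difference of -0.72.

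**Figure D3:**
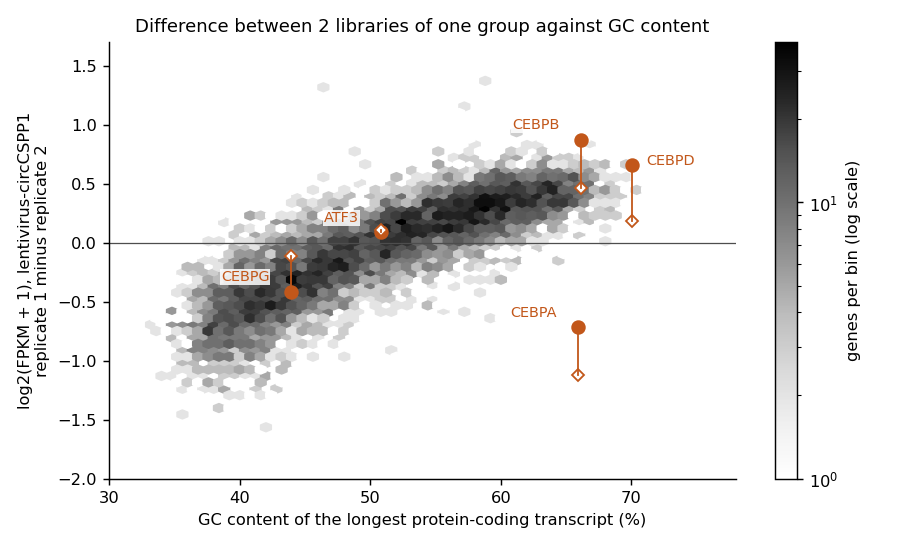
Difference in log2(FPKM + 1) between lentivirus-circCSPP1 replicates 1 and 2 against the GC content of the transcript in percent, for 7663 genes averaging 10 FPKM or more (grey bins, shade on a log scale for genes per bin). Orange circles are the 5 tested members as deposited and open diamonds the same members after the correction for GC content and length, and CEBPB, CEBPD and CEBPG move toward 0 while CEBPA moves away from it.

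After a loess correction of each library for GC content and length, CEBPG was at 23.9, 23.97 and 22.01 FPKM in the controls and at 45.2, 48.8 and 48.9 FPKM in the lentivirus-circCSPP1 replicates. Its log2 fold change was then 1.002 ± 0.064 (SE, adjusted p = 0.000311 in limma). ATF3 was at 0.77 ± 0.18 (SE, adjusted p = 0.0214 in limma). The correction raised the calls over all genes to 28.6%, 14.7% higher and 13.9% lower, against which the 2 of 5 members stand.

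CEBPB had no overlap after the correction, at 44.3, 46.8 and 48.8 FPKM in the controls and 68.1, 49.1 and 62.8 FPKM in the lentivirus-circCSPP1 replicates, with a log2 fold change of 0.34 ± 0.12 (SE, adjusted p = 0.0709 in limma). CEBPD stayed at -0.24 (adjusted p = 0.195 in limma) and CEBPA at 0.61 (adjusted p = 0.152 in limma). The groups of CEBPA overlapped after the correction.

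**Figure D4:**
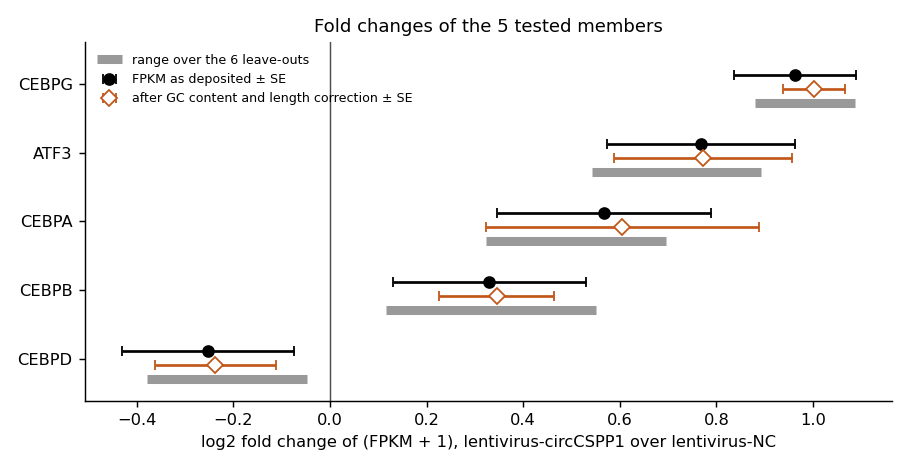
Log2 fold change of FPKM + 1, lentivirus-circCSPP1 over lentivirus-NC, for the 5 tested members as deposited (black circles ± SE) and after correction for GC content and length (open diamonds ± SE), with grey bars for the range over the 6 fits that each leave out a library. CEBPG and ATF3 lie farthest to the right, and the bar of CEBPD runs from -0.38 to -0.05.

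The genes next to the members were read from the annotation. CEBPA and CEBPG lie 70766 nt apart on chromosome 19 with no other gene of the table between them, and PEPD, 4264 nt beyond CEBPG, was at a log2 fold change of 0.16 (adjusted p = 0.464 in limma). NENF beside ATF3 was at -0.05 (adjusted p = 0.877), and TMEM189 and PTPN1 beside CEBPB were at 0.09 and -0.16 (adjusted p = 0.849 and 0.254). SPIDR, whose end lies 603 nt from CEBPD, was at -0.29 (adjusted p = 0.116) and PRKDC at -0.10 (adjusted p = 0.503). SLC7A10, LMLN2, SLC7A8 and FAM71A, the other neighbours, were too low to be tested. No tested neighbour outside the members passed as deposited, and SPIDR did after the GC correction (-0.27, adjusted p = 0.0478).

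The genes whose values ran most like a member's over the 6 libraries were ranked by Pearson's r on log2(FPKM + 1), as a description in which every point shares its library's depth, group and base composition. For CEBPG they were MXD1 (0.998), UHRF1BP1 (0.998) and ATG3 (0.997), and the closest other bZIP gene was DDIT3 (0.984). For ATF3 they were ZXDC (0.994), TRIR (0.985) and HIST1H4H (0.976), with CREBZF (0.952) as the closest bZIP gene. For CEBPB they were VSIR (0.993), LBX2 (0.992) and C1orf56 (0.992), with FOS at 0.817. CEBPD ran closest to CHCHD10 (0.991), DOLK (0.987) and FAM117A (0.985), with BATF3 at 0.824, and CEBPA closest to E2F2 (0.980), CELF1 (0.978) and SLC25A24 (0.971), with CREB5 at 0.914.

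Other bZIP genes were listed because some of their proteins can pair with the members, and pairing was not measured. Of 47 such genes 37 were tested, 8 rose and 1 fell at an adjusted p of 0.05, where 4.69% of all tested genes rose and 6.66% fell. The median log2 fold change was 0.20 against -0.03 over all tested genes. DDIT3, whose protein CHOP pairs with C/EBP proteins and keeps them from their usual sites, went from 24.5 ± 3.64 to 76.4 ± 7.98 FPKM (SD, n = 3 each), a log2 fold change of 1.61 (adjusted p = 0.00148 in limma). FOSL1, an AP-1 subunit, rose by 1.29, from 64.96 ± 3.47 to 161 ± 17.9 FPKM. NFE2L2, the factor NRF2 of the oxidative stress response, rose by 1.09, and MAFG, a small MAF partner of NRF2, by 1.04. ATF4, the partner of CEBPG at composite elements, went from 296 ± 8.83 to 389 ± 8.15 FPKM, or 0.40 on the log2 scale (adjusted p = 0.0113 in limma). The gene that fell was NFE2, with a log2 fold change of -0.65. NFE2 averaged 1.63 FPKM in the controls and 0.67 FPKM in the lentivirus-circCSPP1 libraries, and it passed the filter only through the controls. JUN, the AP-1 subunit, was at 0.99 (adjusted p = 0.00187), and ATF4, NFE2 and JUN are named here after their values were seen.

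Tribbles pseudokinases and ubiquitin ligase genes, several of which act in C/EBP protein turnover, were all measured, and 2 of the 7 rose, where 4.69% of all tested genes did. TRIB3, a Tribbles member that binds ATF4 and is not known to degrade CEBPA as TRIB1 and TRIB2 do, was at 92.9, 74.0 and 62.5 FPKM in the controls and 415, 339 and 321 FPKM in the lentivirus-circCSPP1 replicates, a log2 fold change of 2.22 (adjusted p = 0.0012 in limma). SIAH2, a ubiquitin ligase, was at 0.41 (adjusted p = 0.0443). TRIB1 and COP1, the pair that degrades CEBPA, were at -0.02 (adjusted p = 0.949) and 0.07 (adjusted p = 0.715), and TRIB2 was at 0.03 (adjusted p = 0.885).

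Genes with C/EBP and ATF composite elements were known from earlier results of these data to be higher, so their direction is no independent support. Of 20 listed genes 19 were tested and 13 rose, with none falling and a median log2 fold change of 1.08, where 4.69% of all tested genes rose. The largest were TRIB3 (2.22), STC2, a secreted glycoprotein (2.21), PPP1R15A, a phosphatase subunit that ends the stress block of translation (1.66), DDIT3 (1.61), DDIT4, an mTORC1 inhibitor (1.31), ASNS, asparagine synthetase (1.29), SESN2, an amino acid sensor (1.25), and SLC3A2, an amino acid transporter subunit (1.15). GDF15, 1 of the 13, averaged 0.50 FPKM in the controls and 2.12 FPKM in the lentivirus-circCSPP1 libraries. It passed the filter only through the higher group, so its direction is tied to the filter. Of 66 tested genes with TGATGCAA in a promoter entry, 10 rose (15.2%) and 6 fell (9.09%), against 4.38% and 6.4% of the 9730 tested genes with an entry. Their median of -0.02 was near that of -0.03 over those 9730. CEBPG itself is 1 of the 10. Of the listed genes only CHAC1 (1.08) and HERPUD1 (0.14, adjusted p = 0.635 in limma) are among the 66. The listed genes named above as the largest are not, so these letters were not found for them in the windows searched.

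Acute phase and cytokine genes with known C/EBP sites went both ways. Of 31 listed genes 16 were tested, 4 rose and 7 fell, with a median of -0.24. Over all tested genes 4.69% rose and 6.66% fell. IL6, a cytokine whose gene CEBPB was first found to bind, went from 19.1 ± 5.02 to 4.62 ± 0.67 FPKM and had a log2 difference of -1.81 (adjusted p = 0.0039 in limma). SAA1 (-1.16) and SAA2 (-1.05), serum amyloid genes that are near-identical and may share reads, fell, as did the chemokine gene CXCL6 (-1.11). CXCL6 averaged 2.99 FPKM in the controls and 0.85 FPKM, under the filter, in the lentivirus-circCSPP1 libraries. CXCL2, another chemokine gene, rose by 1.06.

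Of 19 genes reported to be under ATF3 control 10 were tested, 4 rose and 3 fell, where 4.69% of all tested genes rose and 6.66% fell. The median was 0.58, and the list shares IL6 and DDIT3 with the lists above. IL6 and DDIT3 are its called genes with a log2 change of 1 or more. Of 16 myeloid and adipocyte genes that depend on C/EBP factors only AZU1, a neutrophil granule gene, and PPARG, the adipocyte receptor, reached a mean of 1 FPKM over the libraries. AZU1 fell by 0.64 on the log2 scale, from 1.65 ± 0.38 to 0.70 ± 0.25 FPKM (adjusted p = 0.0392 in limma), and PPARG was at -0.04 (adjusted p = 0.863). AZU1 passed the filter only through its higher control values, so its direction is tied to the filter and is no support for a fall.

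**Figure D5:**
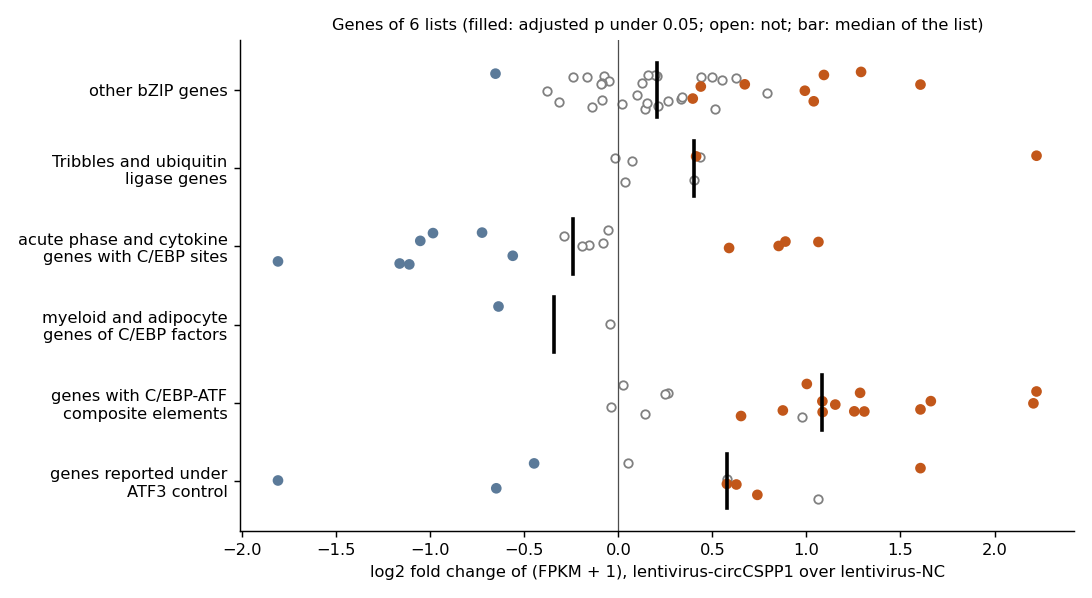
Log2 fold change of FPKM + 1 for the tested genes of the 6 lists, with filled points for genes at an adjusted p under 0.05 (orange higher, blue lower), open points for the others and a black bar for the median of each list. The composite element genes sit to the right with a median of 1.08, while the acute phase and cytokine genes spread from -1.81 to 1.06.

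The study proposed that circCSPP1 binds miR-520h, so the 3′ UTRs of the members in GENCODE release 29 were searched for matches to its seed. The mature sequence in RefSeq is printed with its seed, bases 2 to 8, in capitals, and the 3′ UTR sites on GRCh38 are printed with the 6 bases that pair with bases 2 to 7 in capitals.

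hsa-miR-520h: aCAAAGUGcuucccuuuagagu
CEBPB, chr20:50192157-50192186, + strand: ggcgccggcaaaACTTTGgcactggggcac
CEBPG, chr19:33380198-33380227, + strand: tatatggcataaACTTTGttttaacataat
CEBPG, chr19:33380857-33380886, + strand: tgggctttccagACTTTGtaccactgcttc
CEBPG, chr19:33382660-33382686, + strand: aaataaaaaacaACTTTGgaacaatga

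CEBPG held 3 such 6-base matches in a 3′ UTR of 2994 nt and CEBPB held 1 in 618 nt, while CEBPA, CEBPD, CEBPE and ATF3 held none. None of the 6 members held a longer match of 7 bases. The 6-base match occurs in 48.5% and a 7-base match in 33.1% of the 12233 3′ UTRs of tested genes. Those shares are over 3′ UTRs of all lengths, so they give no background for one as long as that of CEBPG. A single transcript was searched for each member, and ATF3 has 11. Whether miR-520h has a part in any of these changes was not tested.

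The libraries held 28500000 to 36700000 fragments as read from the steps of the low values, with overlap between the groups. CSPP1 was at 9.54 ± 0.49 FPKM in the controls and 19.5 ± 4.44 FPKM in the lentivirus-circCSPP1 cells (SD, n = 3 each, adjusted p = 0.0162 in limma), a gene value that does not separate the circle, the linear RNA and the vector. All 5 epithelial markers (KRT8, KRT18, KRT19, EPCAM and CDH1) were present and lower in the lentivirus-circCSPP1 libraries, with sums of 2271 to 2361 FPKM against 1046 to 1278 FPKM, and their part in the results above was not tested. Of 7 leukocyte markers 2 reached 1 FPKM (sums of 46.9 to 52.3 against 37.1 to 52.1 FPKM), with CD3E at 0, and of 4 fibroblast markers 1 did (sums of 2.85 to 4.34 against 1.30 to 1.97 FPKM). The prostate markers KLK3 and KLK2 were at 0 in every library.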

How the data were processed

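Polyadenylated RNA of 6 DU145 libraries was read by paired-end sequencing. For 19727 genes the authors deposited FPKM values, rounded to 2 decimals, and 0 columns were left unused. The submitters' processing notes name hg38, while the aligner, the FPKM program and the annotation are not given in the sources used here. No count model was used, since FPKM is a normalized unit. Samples were grouped by title. The labels do not say whether replicates were separate cultures, so p-values measure the spread between these libraries, which may be technical.

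Values were taken to log2(FPKM + 1), and limma 3.58.1 (R 4.3.3) was applied to the 12322 genes averaging 1 FPKM or more (eBayes with a trend, two-sided, Benjamini-Hochberg adjustment over all tested genes). The remaining 7405 were not tested. Single values used exact permutation tests (scipy 1.17.1). GC content and length came from the longest protein-coding transcript in GENCODE release 29, possibly not the annotation behind the deposited values, and each library's departure from the gene mean was corrected by loess (span 0.3). Depth was read from FPKM multiplied by length in short transcripts, where 92.9% to 98.3% of 36 to 58 values per library were whole within 0.15. The fit was tested on simulated data.

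The members and lists were chosen with earlier results of these data known. Named genes are the members, list genes at an adjusted p under 0.05 that moved by 1 or more on the log2 scale (at most 8 per list, or the largest rise and fall where there is none), each member's neighbours, the 3 genes and 1 bZIP gene most like it, and CSPP1. Other list genes and the markers were named after their values were seen. Alternatives were other pseudocounts (0.1, 0.01), the filter dropped or raised to 5 FPKM, TPM, median-ratio and quantile scaling, no variance moderation, robust eBayes, the replicate block, the GC correction and leaving out each library. Figures were drawn with matplotlib 3.10.9.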

Additional observations from a re-analysis of the deposited data

How the results depend on the processing

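CEBPG was past an adjusted p of 0.05 in limma in each of 18 alternatives (log2 fold change 0.88 to 1.09, highest adjusted p = 0.0407), and no member changed direction in any. ATF3 lost its call with no filter on low values (0.77, adjusted p = 0.0684), with no variance moderation (0.77, adjusted p = 0.146) and with the replicate block (0.77, adjusted p = 0.0613), and ranged from 0.54 to 0.89 over the leave-outs, where only the fit without lentivirus-circCSPP1 replicate 1 kept it. The members called were then 1, and 1 to 2 over the leave-outs. With the GC correction and a library left out, chosen after the data were seen, ATF3 ranged from 0.55 to 0.89, missing the threshold without lentivirus-circCSPP1 replicate 3 (0.72, adjusted p = 0.068), and CEBPB from 0.25 to 0.48, past the threshold without lentivirus-circCSPP1 replicate 2 (0.48, adjusted p = 0.00994).

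All tested genes gave 1399 calls, against 834 with no moderation, 923 with the replicate block, 3520 with the GC correction, 2734 with both, and 300 to 3512 over the leave-outs, the highest without lentivirus-circCSPP1 replicate 1. The other bZIP genes gave 15 calls with the GC correction, 15 with the block added, and 4 to 18 over the leave-outs. The Tribbles and ubiquitin ligase genes gave 1 with no filter, no moderation or the block, and 1 to 3 over the leave-outs. The acute phase and cytokine genes gave 7 to 12 and the ATF3 list 3 to 8 over the leave-outs. The myeloid and adipocyte genes gave 3 with no filter, 0 with a mean of at least 5 FPKM, quantile scaling, no moderation or the block, and 0 to 1 over the leave-outs. In each of these with 0 calls by limma the count at an unadjusted p under 0.05 was 1, except 0 with a mean of at least 5 FPKM, where only 1 gene was tested.

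With pseudocounts of 0.1 and 0.01 the log2 ratio difference of CEBPA to CEBPG was -0.018 and 0.059, and that of CEBPA to ATF3 0.13 and 0.21. That of CEBPA to CEBPB ranged from -0.23 to 0.57 over the leave-outs, and that of CEBPA to CEBPD from 0.37 to 1.06, with 1.23 and 1.31 at those pseudocounts. CEBPA itself ranged from 0.32 to 1.05 over its alternatives. The cause of these shifts was not tested.

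Same-numbered libraries had deviations correlated at 0.073, 0.0065 and 0.057. Control replicates 1 and 3 correlated best with the lentivirus-circCSPP1 library of their own number, and control replicate 2 with lentivirus-circCSPP1 replicate 3 (0.009). Correlations this small cannot decide whether the numbers pair the samples, and the main fit assumed no pairing.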
